A study of Mus musculus with 24 samples.

Results

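Lungs of Tnfr-/- mice after 72 h of continuous O3 were set against lungs of Tnfr-/- mice in filtered air. The comparison took the 3 arrays titled as knockout at 72 h of O3 and the 3 titled as knockout in air, 6 of the 24 arrays of the series. All mice were male, each array (Affymetrix MOE430A) held the total RNA of the left lung homogenate of 1 mouse, and the O3 dose was 0.3 ppm. Tnfr-/- mice (B6.129S-Tnfrsf1a tm1Imx Tnfrsf1b tm1Imx/J) carry disrupted genes for both receptors of tumor necrosis factor (TNF) in every cell, so the O3 and the air lungs of this comparison both lack TNF receptor signaling. For values side by side, 3 Tnfr-/- arrays each at 24 and 48 h of O3, and 3 Tnfr+/+ arrays (C57BL/6J) each at 72 h of O3 and in air, were also read. The Tnfr+/+ mice were of another stock, and genotype and stock cannot be told apart.

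O3 is an oxidant gas that injures the lining of the small airways and the gas exchange region, where ciliated cells and alveolar type 1 cells are the most easily killed. Over the following days club cells and alveolar type 2 cells divide to replace the lost cells, macrophages and neutrophils enter, and inflammatory and matrix genes are switched on. TNF, a cytokine made largely by macrophages, acts through TNFR1 on most cells and through TNFR2 mainly on immune and endothelial cells, and drives NF-kB activity and the influx of leukocytes.

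Values are signals, intensities on a linear scale without a unit, and a log2 fold change is O3 minus air on the log2 scale with its standard error (SE). Signal of the Tnfrsf1a probe set was 1399, 1715 and 2341 in the 3 O3 lungs and 2052, 1670 and 1654 in the 3 air lungs, and that of Tnfrsf1b was 224, 194 and 208 in O3 lungs and 151, 205 and 234 in air lungs. The groups overlapped for both receptors. Over all arrays this Tnfrsf1b probe set lay between 151 and 266 in Tnfr-/- lungs and between 356 and 525 in Tnfr+/+ lungs. A second Tnfrsf1b probe set lay between 104 and 222 in Tnfr-/- lungs and between 108 and 293 in Tnfr+/+ lungs, so that the genotypes overlapped, as they did for Tnfrsf1a. Where these probes lie relative to the disrupted part is not given in the sources used here, so they are no check of the genotype. Markers of lung epithelium were at high signal in both groups (Sftpc of alveolar type 2 cells 28353 to 31204 in O3 lungs and 30117 to 31204 in air lungs, Scgb1a1 of club cells 27318 to 30117 in O3 lungs and 27743 to 28353 in air lungs). Quantile normalisation gives the brightest probe sets of every array the same few values, so the closeness of these levels does not compare the groups.

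Pairs of arrays correlated across probe sets with r from 0.948 to 0.959 within the O3 group, 0.956 to 0.958 within the air group and 0.936 to 0.943 between them. The ratio of 3′ to 5′ Gapdh control probes, a measure of RNA and labelling quality, was 0.890 to 1.08 in O3 lungs and 1.28 to 1.43 in air lungs, with no overlap, and the actin ratio was 1.02 to 1.09 in O3 lungs and 1.20 to 1.27 in air lungs. Their part in the results below was not tested. Replicate 1 of the Tnfr+/+ lungs at 72 h of O3 stood apart from the other 23 arrays (Gapdh ratio 4.45 against 0.890 to 1.74, mean correlation 0.909 against 0.933 to 0.947), and the comparison of the genotypes is therefore given with and without it. In whole lung RNA, more or fewer cells of a type and more or less RNA per cell cannot be told apart.

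After 72 h of O3, 296 of 11597 genes (2.55%) were called higher and 197 (1.70%) lower than in air, at an adjusted p under 0.05 in limma over 20537 probe sets. Among genes whose mean in the higher group reached the overall median signal, the largest rises included cell division genes (Cdk1, Birc5, Ccna2, Ube2c, Mki67), macrophage and acute phase products (Retnla, Lrg1) and genes of injured epithelium and wound matrix (S100a14, Sprr1a, Tnc), and the falls included growth factor binding proteins (Igfbp3, Igfbp2), the TNF receptor adaptor Traf1 and the growth factor Fgf1. Among these genes the rises reached 4.20 and the falls -1.90 on the log2 scale, and the dimmer Adm (adrenomedullin, a vasodilator peptide) had -2.33 (adjusted p = 0.0066). Values of the 3 O3 and the 3 air lungs did not overlap for 1367 genes that were higher (11.8%) and for 1817 that were lower (15.7%). The counts depended on single arrays. Of probe sets, 534 were called higher and 280 lower, and leaving out air replicate 1, 2 or 3 gave 363, 389 and 328 higher and 125, 149 and 86 lower, while leaving out O3 replicate 1, 2 or 3 gave 443, 327 and 343 higher and 246, 116 and 135 lower. Without Tnfr+/+ replicate 1 at 72 h of O3, which enters only the estimate of the spread, 722 were higher and 444 lower.

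**Figure D1:**
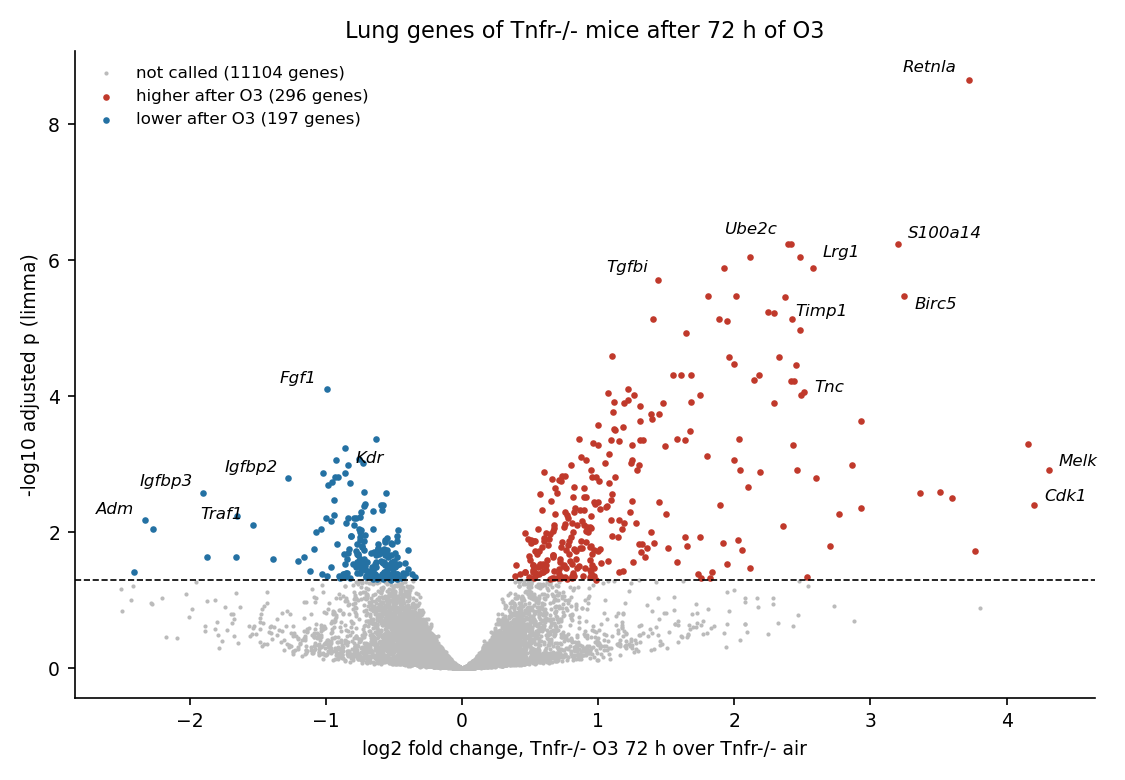
Log2 fold change of Tnfr-/- lungs at 72 h of O3 over air (x axis) against -log10 of the adjusted p (y axis) for 11597 genes, 1 point a gene, with the dashed line at an adjusted p of 0.05. The 296 genes called higher reach further from 0 than the 197 called lower, and cell division genes and Retnla stand among the most extreme points.

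Genes of mitosis and cell division rose together. Of 48 measured members of the list, 38 were called higher and none lower, the median log2 fold change was 1.61, against -0.06 over all genes, and for 44 the O3 and air lungs did not overlap. The summed signal of the 48 members was between 24513 and 25838 in the O3 lungs and between 10187 and 10822 in the air lungs. Leaving out 1 array at a time left 32 to 39 members called. The 10 not called were Kif11, Kif2c, Ttk, Nek2, Foxm1, Aspm, Smc2, Smc4, Ncaph and Tacc3, of which only Kif2c had a log2 fold change below 0 (-0.30).

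Cdk1, the kinase that drives entry into mitosis, read 703, 699 and 733 in O3 lungs and 33.5, 28.6 and 60.5 in air lungs, a log2 fold change of 4.20 (SE 0.78, adjusted p = 0.0039). Its air values were low, so that this fold change has a wide error, but all 3 O3 lungs were far above all air lungs. Ccna2, the cyclin A of S phase and early mitosis, had signals of 710, 838 and 960 in O3 lungs and 133, 176 and 161 in air lungs (log2 fold change 2.42, SE 0.19, adjusted p = 5.8e-07). Ccnb2, a B-type cyclin that partners Cdk1, gave 458, 414 and 426 in O3 lungs and 105, 113 and 104 in air lungs (2.01, SE 0.19, adjusted p = 3.4e-06). For both cyclins the spread within a group was small beside the gap between the groups.

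Other members rose by similar amounts. Ube2c, the ubiquitin conjugating enzyme of the anaphase promoting complex, read 823, 904 and 735 in O3 lungs and 163, 161 and 144 in air lungs (log2 fold change 2.39, SE 0.18, adjusted p = 5.8e-07). Birc5 (survivin), part of the chromosomal passenger complex, read 773, 545 and 846 in O3 lungs and 55.6, 81.9 and 91.9 in air lungs (3.24, SE 0.30, adjusted p = 3.4e-06). Mki67, the proliferation antigen Ki-67, gave 712, 709 and 680 in O3 lungs and 109, 152 and 133 in air lungs (2.43, SE 0.24, adjusted p = 7.2e-06). None of these 3 genes overlapped between the groups, and the same was seen for the kinesin Kif22 (2.45) and the mitotic kinase Pbk (2.12). Top2a and Plk1, picked after their values were seen, rose by 1.95 (adjusted p = 7.9e-06) and 1.40 (adjusted p = 7.2e-06).

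DNA replication genes rose too, by less. Of 44 measured members 18 were called higher and none lower, with a median log2 fold change of 0.85, and 35 did not overlap between O3 and air lungs. Leaving out 1 array at a time left 13 to 24 called. Rrm2, the regulated subunit of ribonucleotide reductase that supplies deoxynucleotides, gave 926, 830 and 859 in O3 lungs and 170, 155 and 143 in air lungs (2.48, SE 0.20, adjusted p = 9.0e-07), and all 3 of its probe sets were called. Mcm5, a subunit of the replicative helicase, read 508, 461 and 455 in O3 lungs and 138, 144 and 125 in air lungs (1.81, SE 0.17, adjusted p = 3.4e-06). Uhrf1, which keeps DNA methylation through replication, read 281, 252 and 348 in O3 lungs and 64.5, 44.1 and 49.6 in air lungs (2.48, SE 0.26, adjusted p = 1.1e-05). All 3 were higher in every O3 lung than in any air lung, as was Mcm2 (1.39, adjusted p = 0.00022). In the list of DNA damage response and repair 7 of 27 members were called higher, a count that fell to 3 without air replicate 1, to 4 without air replicate 3, and to 2, 1 and 2 without O3 replicate 1, 2 or 3.

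The start regions of 4 members that were called higher are shown, from 250 bases before to 50 bases after the gene start (RefSeq sequence, build GRCm38.p6, each printed along the strand of its gene). They were picked among members whose start region held the motifs named below, both motifs for the mitosis genes. That they hold matches therefore follows from the choice, and the shares over all members are given in the next paragraph. Capitals mark the matches of the motifs searched on both strands. For the 2 mitosis genes these were CCAAT, the box that the factor NF-Y binds, and TTTGAA, the cell cycle genes homology region bound by the MuvB complexes. For the 2 replication genes they were TTTGGCGC or TTTCGCGC, forms of the E2F site. Ube2c lies at chr2:164769679-164769978 on the + strand (7 matches, of which 1 CCAAT overlaps its own reverse), Ccnb2 at chr9:70421505-70421804 on the - strand (5 matches), Mcm5 at chr8:75109259-75109558 on the + strand (2 overlapping matches) and Cdt1, a licensing factor for replication origins that rose by 0.90 (adjusted p = 0.0046), at chr8:122567765-122568064 on the + strand (1 match).
Ube2c: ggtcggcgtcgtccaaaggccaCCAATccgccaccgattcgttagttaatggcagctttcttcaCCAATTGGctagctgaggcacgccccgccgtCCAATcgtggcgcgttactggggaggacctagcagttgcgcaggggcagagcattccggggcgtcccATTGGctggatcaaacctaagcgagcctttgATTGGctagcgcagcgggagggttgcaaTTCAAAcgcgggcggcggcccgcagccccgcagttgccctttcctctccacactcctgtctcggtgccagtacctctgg
Ccnb2: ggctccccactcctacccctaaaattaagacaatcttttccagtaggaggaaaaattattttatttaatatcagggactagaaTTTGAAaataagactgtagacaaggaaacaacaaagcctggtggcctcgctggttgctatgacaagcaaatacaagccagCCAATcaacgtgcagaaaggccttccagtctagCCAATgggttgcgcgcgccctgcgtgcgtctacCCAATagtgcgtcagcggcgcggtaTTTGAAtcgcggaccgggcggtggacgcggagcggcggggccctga
Mcm5: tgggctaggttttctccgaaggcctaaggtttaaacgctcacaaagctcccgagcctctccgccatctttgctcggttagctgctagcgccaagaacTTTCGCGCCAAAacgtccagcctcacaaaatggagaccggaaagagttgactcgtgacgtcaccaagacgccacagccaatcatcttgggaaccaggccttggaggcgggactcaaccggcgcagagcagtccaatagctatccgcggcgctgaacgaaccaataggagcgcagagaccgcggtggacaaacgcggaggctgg
Cdt1: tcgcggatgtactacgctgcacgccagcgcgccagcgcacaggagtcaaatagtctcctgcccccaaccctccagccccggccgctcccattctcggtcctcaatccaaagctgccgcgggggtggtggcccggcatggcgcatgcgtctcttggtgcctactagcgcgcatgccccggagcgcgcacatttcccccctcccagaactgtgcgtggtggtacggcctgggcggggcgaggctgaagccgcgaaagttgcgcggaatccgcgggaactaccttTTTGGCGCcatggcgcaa

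Among the mitosis genes called higher, 31 matched the promoter table, with 33 promoters. CCAAT stood in 26 of the 33 (78.8%), TTTGAA in 26 (78.8%) and both in 24 (72.7%). Over all 32851 promoters of the same length the shares were 37.4%, 17.9% and 6.95%. The 8 promoters of mitosis genes not called held CCAAT in 5 (62.5%), TTTGAA in 5 and both in 4 (50.0%). An E2F form stood in 7 of 19 promoters of 15 replication genes called higher (36.8%), in 4 of 24 promoters of those not called (16.7%) and in 0.813% of all promoters. These are matches of letters and show no binding.

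The rise of cell division genes was not seen at 24 h of O3. In Tnfr-/- lungs 98 genes (0.845%) were called higher and 54 (0.466%) lower at 24 h against air, and 301 (2.60%) and 173 (1.49%) at 48 h, with the same 3 air arrays in all 3 comparisons. No mitosis or replication gene was called at 24 h by limma, where at an unadjusted p under 0.05 there were 8 higher and 3 lower mitosis genes and 11 higher and 1 lower replication genes. At 48 h 28 mitosis and 19 replication genes were called higher. Ube2c averaged 156 ± 10.7 in air and 112 ± 12.6, 424 ± 98 and 821 ± 84.5 at 24, 48 and 72 h (SD, n = 3 each). Mki67 averaged 131 ± 21.2 in air and 159 ± 27.7, 484 ± 64.7 and 700 ± 17.5 at the same times. Neither gene passed the test at 24 h against air (Ube2c -0.48, adjusted p = 0.25, and Mki67 0.27, adjusted p = 0.72), and in both the mean was highest at 72 h.

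**Figure D2:**
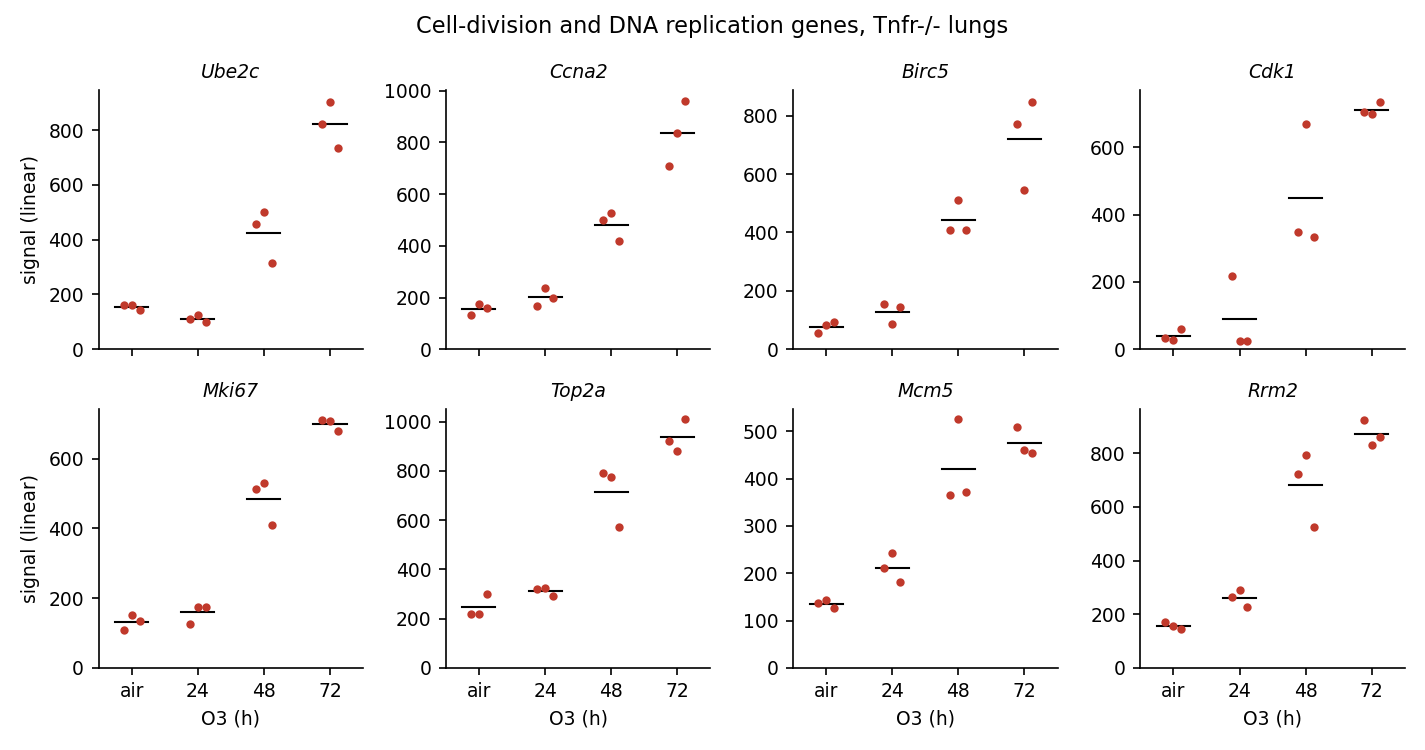
Signal (linear scale, y axis) of 6 mitosis genes (Ube2c, Ccna2, Birc5, Cdk1, Mki67, Top2a) and 2 replication genes (Mcm5, Rrm2) in Tnfr-/- lungs in air and at 24, 48 and 72 h of O3, 1 point an array, with a line through the means. The 3 points at 72 h lie above all air points in every panel, and the mean of Ube2c is 112 at 24 h and 821 at 72 h.

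Set directly against the 24 h lungs, a comparison added after the data were seen, the 72 h lungs had 89 genes higher (0.767%) and 60 lower (0.517%). Mitosis genes made up 32 of those higher, and 26 to 34 when single arrays were left out. Ube2c was higher by 2.87 on the log2 scale (SE 0.18, adjusted p = 6.3e-08), Ccna2 by 2.06 (adjusted p = 9.3e-06) and Birc5 by 2.50 (adjusted p = 0.00015). For replication the count was 7 of 44, and it was 3 without 24 h replicate 2 or 3 or without 72 h replicate 2, 4 without 72 h replicate 3, and 5 without 24 h replicate 1 or 72 h replicate 1. Without the Tnfr+/+ array that stood apart it was 10, since that array enters the estimate of the spread. Clusterin (Clu), a secreted chaperone, averaged 9432 ± 693 at 72 h and 4488 ± 937 at 24 h (1.09, adjusted p = 0.00064).

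Other genes were lower at 72 h than at 24 h. Egr1, an immediate early transcription factor, read 1594, 989 and 1540 at 72 h and averaged 5351 ± 313 at 24 h (log2 difference -1.99, adjusted p = 1.0e-05), and its air level was 1400 ± 152. Nr4a1, an immediate early nuclear receptor, averaged 1014 ± 292 at 72 h and 4407 ± 1052 at 24 h (-2.13, adjusted p = 0.0045). In the immediate early list 7 of 28 genes were lower at 72 h than at 24 h, 4 without 24 h replicate 2 or 72 h replicate 2. Hsph1, a large heat shock chaperone, went the other way, with 3813 ± 776 at 72 h and 853 ± 219 at 24 h (2.18, adjusted p = 0.00096). Cd3d, a T cell receptor subunit, had low signals of 13.8, 27.6 and 27.7 at 72 h and a mean of 135 ± 35.0 at 24 h (-2.59, adjusted p = 0.0044). These 4 genes were chosen after their values were seen, and each call held without any single array. Neither Egr1 nor Hsph1 was called at 72 h against air (-0.05 and 0.63, adjusted p = 0.93 and 0.32).

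Between 72 and 48 h limma called 1 gene (0.00862%), and 649 genes had an unadjusted p under 0.05. No member of the mitosis list was called between 72 and 48 h by limma. Where p was left unadjusted at 0.05, 20 of its 48 measured members rose and none fell. The median log2 difference of that list was 0.45. The gene called was Sgo1 (shugoshin), which guards the cohesion of sister chromatids. Its signal was 143, 162 and 93.0 at 72 h and 24.4, 28.5 and 26.8 at 48 h, close to the air lungs with 21.1, 24.8 and 23.2. The log2 difference was 2.28 (SE 0.32, adjusted p = 0.018). The call was lost without any 1 of the 48 h arrays or without 72 h replicate 1 or 2 (adjusted p up to 0.26), whereas the rise at 72 h against air (2.49, adjusted p = 9.7e-05) held without any single array.

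Acute phase and inflammatory mediators rose in part. Of 32 measured members 11 were called higher and none lower, with a median log2 fold change of 0.59, and 9 to 12 were called when single arrays were left out. Lrg1, a secreted glycoprotein of the acute phase, read 6411, 6746 and 5930 in O3 lungs and 953, 1246 and 1021 in air lungs (2.58, SE 0.22, adjusted p = 1.3e-06). Lcn2 (lipocalin 2), which binds bacterial siderophores, gave 4033, 3230 and 3640 in O3 lungs and 1059, 890 and 854 in air lungs (1.96, SE 0.22, adjusted p = 2.7e-05). Both rises put every O3 lung above every air lung. Saa3, a serum amyloid A made outside the liver, rose by 2.00 (adjusted p = 3.3e-05), and Tlr2, a receptor for bacterial lipoproteins, by 1.07 (adjusted p = 8.9e-05). Picked after their values were seen, Serpina3n rose by 1.68, the cytokine signaling inhibitor Socs3 by 1.80 and the alarmin Il33 by 1.01. For TNF itself (Tnf) all arrays of both groups were at low signal (15.9, 18.4 and 21.7 in O3 lungs and 23, 24.7 and 24.5 in air lungs).

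In contrast to the mitosis genes, these genes were already high at 24 h. The acute phase list had 10 members called higher at 24 h, 11 at 48 h and 11 at 72 h, and none was called between 72 and 24 h by limma (at an unadjusted p under 0.05, 2 were higher and 1 was lower). Retnla (resistin-like alpha), a product of alternatively activated macrophages and of airway epithelium, averaged 1651 ± 389 in air and 18932 ± 2155, 25169 ± 2472 and 21472 ± 1367 at 24, 48 and 72 h. In the single lungs it read 22261, 22261 and 19893 at 72 h of O3 and 2092, 1356 and 1506 in air (3.72, SE 0.19, adjusted p = 2.3e-09), the smallest p of all genes named. Its difference between 72 and 24 h was 0.19 (adjusted p = 0.81). Timp1, the tissue inhibitor of metalloproteinases, averaged 308 ± 13 in air and 2684 ± 770, 3024 ± 390 and 1608 ± 247 at 24, 48 and 72 h, and its 72 h rise over air was 2.37 (SE 0.22, adjusted p = 3.5e-06), while its difference between 72 and 24 h did not pass the test (-0.71, adjusted p = 0.17).

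**Figure D3:**
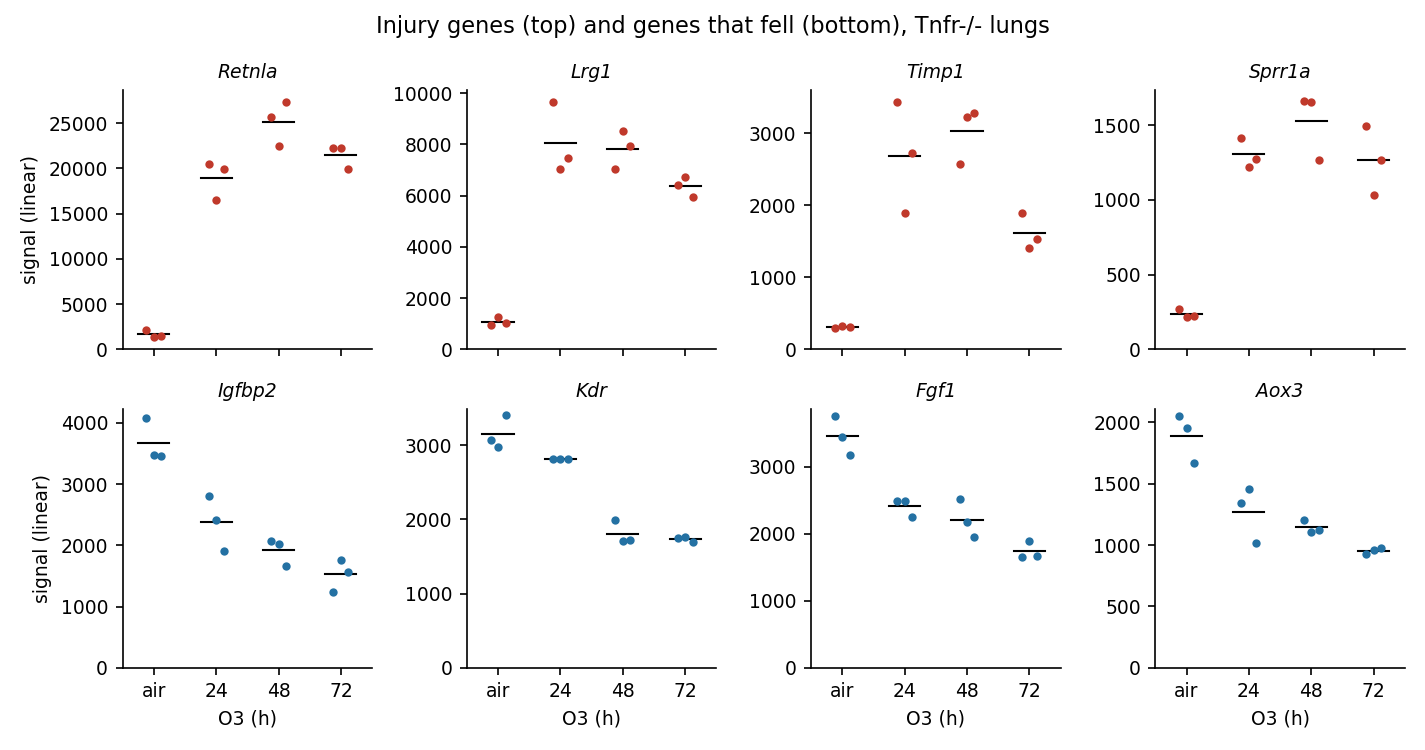
Signal (linear scale, y axis) of 4 genes that rose (Retnla, Lrg1, Timp1, Sprr1a) and 4 that fell (Igfbp2, Kdr, Fgf1, Aox3) in Tnfr-/- lungs in air and at 24, 48 and 72 h of O3, 1 point an array, with a line through the means. The 4 rising genes are already high at 24 h (Retnla 18932 on average), while the lowest mean of each falling gene is at 72 h (Igfbp2 1526).

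Genes of squamous and injured epithelium rose in part as well. Of 35 measured members 13 were called higher and none lower, with 10 to 13 when single arrays were left out, and the median log2 fold change was 0.31. S100a14, a calcium binding protein of epithelia, read 637, 553 and 667 in O3 lungs and 72.0, 67.4 and 62.5 in air lungs (3.20, SE 0.25, adjusted p = 5.8e-07). Sprr1a, a precursor of the cornified envelope, gave 1493, 1034 and 1267 in O3 lungs and 268, 216 and 222 in air lungs (2.42, SE 0.29, adjusted p = 6.0e-05). Tgm1, the transglutaminase that cross-links such precursors, read 180, 231 and 251 in O3 lungs and 35.5, 26.2 and 70.1 in air lungs (2.44, SE 0.29, adjusted p = 6.0e-05). In all 3 genes the lowest O3 lung was above the highest air lung. Clu gave 8730, 9453 and 10114 in O3 lungs and 3724, 4360 and 4051 in air lungs (1.22, SE 0.15, adjusted p = 7.8e-05), and its 4 probe sets were all called. Of the genes picked after their values were seen, the simple keratin Krt8 rose by 0.84, the phospholipid binding protein Anxa1 by 0.96 and the tight junction claudin Cldn4 by 1.31.

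**Figure D4:**
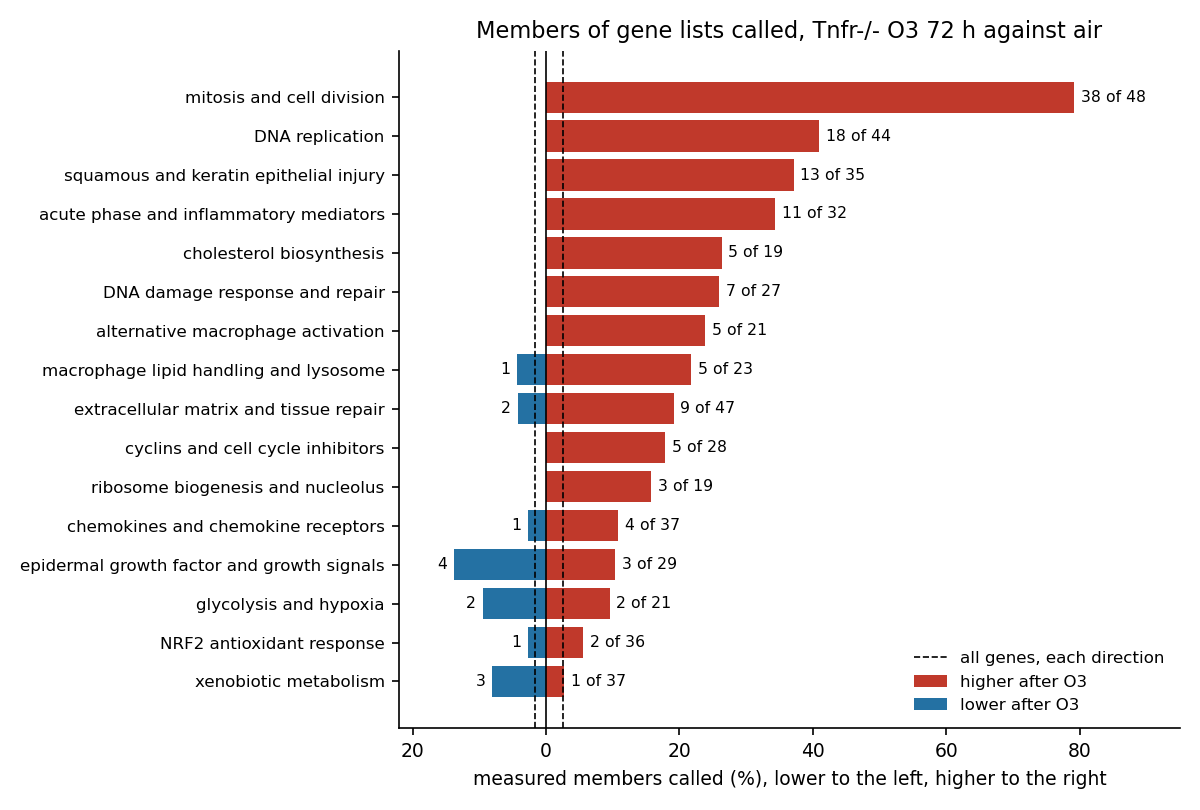
Share of the measured members of 16 gene lists called lower (left) and higher (right) in Tnfr-/- lungs at 72 h of O3 against air, in percent of members, with dashed lines at the share of all genes (1.70% lower and 2.55% higher). Mitosis (38 of 48) and DNA replication (18 of 44) have the largest shares higher, while growth signals and xenobiotic metabolism have more members lower than higher.

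Matrix and repair genes were called in both directions, 9 higher and 2 lower of 47. The count of those higher was 4 without air replicate 3 and 5 without O3 replicate 2. Tnc (tenascin C), a matrix protein of healing wounds, read 846, 685 and 740 in O3 lungs and 169, 116 and 117 in air lungs (2.51, SE 0.31, adjusted p = 8.8e-05). Tgfbi, a secreted protein induced by TGF-beta, read 2813, 3114 and 3072 in O3 lungs and 1086, 1049 and 1182 in air lungs (1.44, SE 0.13, adjusted p = 2.0e-06). Hbegf, a ligand of the EGF receptor, gave 1858, 2329 and 2537 in O3 lungs and 955, 1106 and 1013 in air lungs (1.12, SE 0.19, adjusted p = 0.0015). Every O3 lung exceeded every air lung in these 3 genes. Among growth signals as a list, 3 of 29 members were called higher and 4 lower.

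Macrophage genes rose in small numbers. Of 21 members of alternative macrophage activation 5 were called higher (3 without air replicate 2 or without O3 replicate 3), and of 23 genes of macrophage lipid handling and lysosome 5 were higher and 1 lower. Chil3, a chitinase-like protein of activated macrophages, read 10806, 10492 and 11216 in O3 lungs and 5591, 5377 and 5279 in air lungs (1.00, SE 0.18, adjusted p = 0.0035). Ctsk, a lysosomal protease, read 667, 623 and 945 in O3 lungs and 287, 260 and 245 in air lungs (1.48, SE 0.19, adjusted p = 0.00012). Cd68, a lysosomal membrane protein of macrophages, rose by 1.25 (adjusted p = 0.00052). The O3 and air lungs did not overlap in any of the 3.

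The chemokine list had 4 of 37 members higher and 1 lower, against 2.55% higher and 1.70% lower over all genes. Ccl17, a ligand of CCR4 on T cells, read 776, 684 and 694 in O3 lungs and 226, 270 and 301 in air lungs (1.44, SE 0.19, adjusted p = 0.00018). Ccr1, a receptor of CC chemokines on monocytes and neutrophils, rose by 1.55 (adjusted p = 4.9e-05), and the macrophage chemokine Ccl6 by 1.15 (adjusted p = 0.0066). The neutrophil attractant Cxcl2, chosen after its values were seen, read 61.4, 54.6 and 86.6 in O3 lungs and 82.3, 48.0 and 41.0 in air lungs and was not called (0.28, adjusted p = 0.73).

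In the TNF and NF-kB lists the shares called were near those of all genes (2.55% higher and 1.70% lower). Of 32 TNF family ligands and receptors only Tnfrsf12a, the receptor of the cytokine TWEAK, was called, with 1512, 1772 and 1446 in O3 lungs and 477, 732 and 739 in air lungs (1.30, SE 0.21, adjusted p = 0.0010). Among 25 NF-kB subunits, inhibitors and targets 1 was called higher and 1 lower, with a median log2 fold change of -0.08. The 1 higher was not called without any 1 of the 3 air arrays or without O3 replicate 2 or 3. The one that was lower was Traf1, an adaptor of TNF receptors and itself an NF-kB target, which read 107, 84.5 and 156 in O3 lungs and 263, 319 and 410 in air lungs (-1.54, SE 0.31, adjusted p = 0.0079). Its groups did not overlap, but the call was lost without air replicate 3 (adjusted p = 0.052) or O3 replicate 2 (adjusted p = 0.053).

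The antioxidant list of the factor NRF2 had 2 of 36 members higher and 1 lower, with a median log2 fold change of 0.08. In a list this short, these counts are near the shares of all genes (2.55% higher and 1.70% lower). Where p was left unadjusted at 0.05 in limma, 11 members rose and 6 fell. Gclc, the catalytic subunit of the enzyme that limits glutathione synthesis, read 5836, 4438 and 5936 in O3 lungs and 2462, 2319 and 2601 in air lungs (1.12, SE 0.16, adjusted p = 0.00031). Gsr, glutathione reductase, gave 1312, 1176 and 1158 in O3 lungs and 667, 661 and 683 in air lungs (0.86, SE 0.12, adjusted p = 0.00042). Both genes of glutathione supply were higher in all O3 lungs. Picked after their values were seen, the NRF2 targets Hmox1 (0.45, adjusted p = 0.29) and Nqo1 (0.35, adjusted p = 0.46) did not pass the test.

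Genes of growth factor signaling, vessels and drug metabolism were among those that fell. Igfbp2, a binding protein of insulin-like growth factors, read 1247, 1764 and 1565 in O3 lungs and 4086, 3478 and 3453 in air lungs (-1.28, SE 0.22, adjusted p = 0.0016). Igfbp3, another such binding protein, read 239, 114 and 83.5 in O3 lungs and 435, 471 and 581 in air lungs (-1.90, SE 0.34, adjusted p = 0.0026). Fgf1, a fibroblast growth factor, gave 1655, 1894 and 1662 in O3 lungs and 3755, 3443 and 3170 in air lungs (-0.99, SE 0.12, adjusted p = 7.8e-05). In each of the 3 the highest O3 lung was below the lowest air lung.

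Kdr, the main VEGF receptor of endothelium, read 1751, 1762 and 1693 in O3 lungs and 3070, 2976 and 3402 in air lungs (-0.86, SE 0.14, adjusted p = 0.0014). Aox3, an aldehyde oxidase, read 924, 963 and 975 in O3 lungs and 2053, 1954 and 1669 in air lungs (-0.98, SE 0.17, adjusted p = 0.0020). Fmo1, a flavin monooxygenase, gave 2454, 2291 and 2464 in O3 lungs and 4266, 4518 and 4090 in air lungs (-0.84, SE 0.13, adjusted p = 0.0010). The groups were well apart in all 3, and Hpgd, which inactivates prostaglandins, fell likewise (-0.91, adjusted p = 0.0015). In the list of xenobiotic metabolism (median -0.21) 3 of 37 members were called lower and 1 higher, against 1.70% and 2.55% of all genes. The 1 higher was lost without any 1 of the O3 arrays or without air replicate 1 or 3.

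Of the 36 lists of processes 5 had no member called. In lists this short that is near the share of all genes (2.55% higher and 1.70% lower). In the interferon response none of 31 passed limma (median -0.25, with 1 higher and 4 lower where p was left unadjusted at 0.05), and in the unfolded protein response none of 25 (6 higher and 1 lower). Of 27 heat shock proteins and co-chaperones none was called against air (median 0.39, 6 higher and none lower at an unadjusted p under 0.05).

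Markers of the lining cells gave no call, which in lists this short is near the share of all genes (2.55% higher and 1.70% lower). None of 7 alveolar type 1, 11 alveolar type 2, 9 club cell or 6 ciliated cell markers passed limma (at an unadjusted p under 0.05 there were in that order 0, 1, 0 and 1 higher and 1, 1, 0 and 0 lower). The summed signal of the type 1 markers was 56533 to 59037 in O3 lungs and 64391 to 65566 in air lungs. That of the type 2 markers was 145184 to 154452 in O3 lungs and 146974 to 152031 in air lungs. The type 2 sums include Sftpc, among the brightest probe sets, whose values quantile normalisation makes alike. To that extent the closeness of the type 2 sums does not compare the groups. Ager, a marker of type 1 cells, read 10523, 10806 and 9600 in O3 lungs and 11263, 11143 and 11907 in air lungs (-0.15, adjusted p = 0.64). So the type 1 sums did not overlap, although no single marker was called. For 5 of the 7 type 1 markers every O3 lung was below every air lung, against 15.7% of all genes. That count was 1 of 11 for type 2, 3 of 9 for club and 1 of 6 for ciliated markers. Among the type 1 markers limma called 1 lower at 24 h and 2 lower in Tnfr+/+ lungs at 72 h.

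For endothelial cells all 11 markers had a log2 fold change below 0, 2 of them called. Kdr kept its call without any single array, while Aplnr, the receptor of apelin (-0.86, adjusted p = 0.045), lost it without any 1 of the air arrays or without O3 replicate 2 or 3 (adjusted p up to 0.21). The summed signal was 29321 to 33960 in O3 lungs and 37038 to 44637 in air lungs. Neutrophil markers gave 1 call of 11, Lcn2, which epithelium also makes, with 4 of 11 above 0. Their summed signal was 6272 to 7725 in O3 lungs and 3850 to 4360 in air lungs, of which Lcn2 alone made up 3230 to 4033 in O3 lungs and 854 to 1059 in air lungs. The neutrophil products S100a8 (0.05, adjusted p = 0.98) and S100a9 (-0.07, adjusted p = 0.97) overlapped between the groups. Alveolar macrophage markers had 3 of 12 called higher, with sums of 21208 to 23490 in O3 lungs and 14326 to 15475 in air lungs. Chil3 alone, with the signals given above, made up a large part of these sums. The median log2 fold change of this list was 0.21, with 11 of 12 above 0. At an unadjusted p under 0.05 in limma 4 were higher and 1 lower. All 8 B cell and all 8 T cell markers were below 0 and none was called (1 and 3 lower at an unadjusted p under 0.05). Beside these cell type counts, 2.55% of all genes were called higher and 1.70% lower. No call in lists as short as those of B and T cells is near these shares. The part of these cell types in the gene changes above was not tested.

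At 72 h the response of the Tnfr-/- lungs was set beside that of the Tnfr+/+ lungs, which share no array with it. In Tnfr+/+ lungs 224 genes (1.93%) were called higher and 174 (1.5%) lower. Of those higher, 158 were called in both genotypes (53.4% of the Tnfr-/- and 70.5% of the Tnfr+/+ list), and of those lower 65 (33.0% and 37.4%). Of the 493 genes called in Tnfr-/- lungs 471 (95.5%) had the same sign in Tnfr+/+ lungs, against 7508 of all 11597 genes (64.7%). Across all genes the log2 fold changes of the genotypes correlated with r = 0.42 and rho = 0.39, a description over genes that are not independent. Without the Tnfr+/+ array that stood apart, 390 genes were higher and 309 lower in Tnfr-/- lungs and 167 and 123 in Tnfr+/+ lungs, of which 141 and 68 were called in both. In that fit 674 of 699 called genes (96.4%) had the same sign, against 68.9% of all genes, with r = 0.45 and rho = 0.46 across genes.

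**Figure D5:**
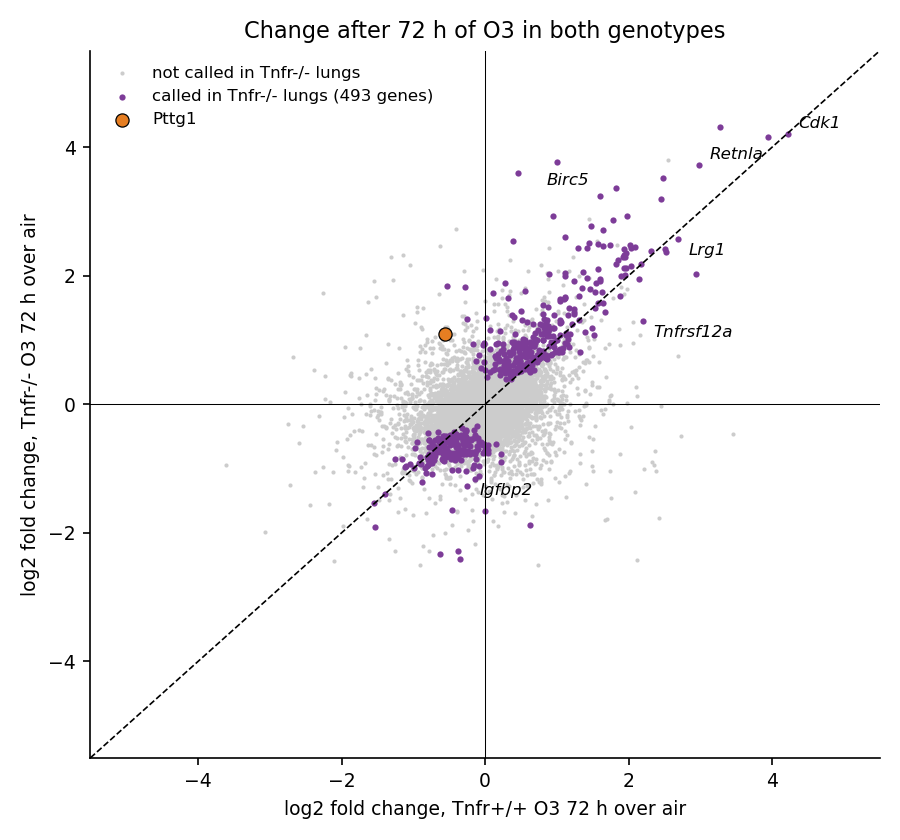
Log2 fold change of 72 h of O3 over air in Tnfr+/+ lungs (x axis) and in Tnfr-/- lungs (y axis), 1 point for each of 11597 genes, with the 493 genes called in Tnfr-/- lungs in purple and Pttg1 in orange. Most called genes (471) lie in the quadrants where both genotypes have the same sign, and Pttg1 lies where they differ.

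The cell division response stood in both genotypes, with 38 mitosis and 18 replication genes called higher in Tnfr-/- lungs and 30 and 14 in Tnfr+/+ lungs (28 and 14 without the array that stood apart). Log2 fold changes were 4.20 in Tnfr-/- and 4.22 in Tnfr+/+ lungs for Cdk1, 2.39 and 2.31 for Ube2c, 3.72 and 2.98 for Retnla, and 2.58 and 2.69 for Lrg1. Without that array the Tnfr+/+ values were 4.22 for Cdk1, 2.17 for Ube2c, 2.97 for Retnla and 2.39 for Lrg1. Igfbp2 had -1.28 in Tnfr-/- lungs and -0.25 in Tnfr+/+ lungs (adjusted p = 0.61), or -0.57 in Tnfr+/+ lungs without that array. The test of the difference itself, the interaction of genotype and O3, was not passed by any of these 5 genes (adjusted p from 0.87 to 1.00, and 1.00 for each without that array). For Ube2c the interaction was 0.08 with an SE of 0.25, and for Igfbp2 it was -1.03 with an SE of 0.31. Not all mitosis genes were as close between the genotypes as Cdk1 and Ube2c. Birc5 had 3.24 in Tnfr-/- lungs and, without the array that stood apart, 1.69 in Tnfr+/+ lungs (interaction 1.55, adjusted p = 0.95). Pttg1, also 1 of the 38, had -0.57 in Tnfr+/+ lungs and is described next.

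The interaction called 1 of 20537 probe sets (0.00487%), with 1090 at an unadjusted p under 0.05. It belonged to Pttg1 (securin), the inhibitor of separase that holds sister chromatids together until anaphase. This probe set read 1344, 1790 and 1803 in the O3 lungs of Tnfr-/- mice and 873, 912 and 558 in Tnfr-/- air lungs, a rise of 1.10 (adjusted p = 0.00044). In Tnfr+/+ lungs it read 3945, 4386 and 4435 at 72 h of O3 and 5845, 6351 and 6695 in air, and the fold change was -0.57 on the log2 scale (adjusted p = 0.062). The interaction was 1.66 (SE 0.23, adjusted p = 0.016), and the Tnfr+/+ level was above the Tnfr-/- level in every lung. A second probe set of Pttg1 gave an interaction of 2.24 (adjusted p = 0.15) and the third, at low signal, 0.43 (adjusted p = 0.95). The call was lost without Tnfr+/+ air replicate 2 (1.65, adjusted p = 0.073), Tnfr+/+ O3 replicate 1 or 2 (1.61 and 1.68, adjusted p = 0.076 and 0.056) or Tnfr-/- O3 replicate 2 (1.59, adjusted p = 0.095).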

How the data were processed

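Total RNA of left lung homogenates was hybridised to 24 Affymetrix MOE430A arrays, 3 mice in each of 8 groups. The deposited values were linear signal intensities that the authors made with MAS5 in Affymetrix Expression Console (versions not stated). Percentile filtering, quantile normalisation and scaling to the mean of Tnfr+/+ air lungs, described in the study's methods, were not in the deposited values.

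Intensities were quantile normalised over the 24 arrays, set to at least 1 and log2 transformed, and a probe set was kept where at least 1 array reached the 20th percentile (20537 of 22644, with 64 controls left out). limma 3.58.1 (R 4.3.3) was fitted to the 8 group means, with Benjamini-Hochberg adjustment over all probe sets and calls at an adjusted p under 0.05. All groups shared 1 estimate of the spread (16 residual degrees of freedom). Each gene was represented by its kept probe set of highest mean (11597 genes). Of the probe sets, 20338 had 1 gene symbol (20309 updated by Entrez ID), 1551 were unnamed and 691 carried more than 1. The pipeline was tested on simulated data. Having 3 mice a group limits the precision, and the p-values set a difference against the spread between mice, shared over all 8 groups.

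Named genes were the 14 largest rises and 14 largest falls called, with a group mean at or above the median of all kept probe sets and no overlap of arrays, both receptor genes, up to 4 called members of each of 36 process and 24 cell type or tissue lists by adjusted p, and up to 10 interaction genes. Members, lists and tests were chosen with earlier results of these data known. Comparisons of 72 h with 24 and 48 h were added after the data were seen. Alternatives were other normalisations, filters, floors, fits, probe set rules and tests, array weights, a replicate block and leaving out each array.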

Additional observations from a re-analysis of the deposited data

Results flagged for a closer look

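Pttg1 stood out because its response to 72 h of O3 differed between the genotypes by the interaction test. The log2 fold change was 1.10 in Tnfr-/- lungs and -0.57 in Tnfr+/+ lungs, a difference of 1.66 (limma, SE 0.23, adjusted p = 0.016). All 3 Tnfr-/- O3 lungs were above all 3 Tnfr-/- air lungs, and all 3 Tnfr+/+ O3 lungs were below all 3 Tnfr+/+ air lungs.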

How the results depend on the processing

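With the fit limited to the arrays of each comparison, 181 probe sets were higher and 41 lower at 72 h against air, with 25 mitosis and 6 replication genes higher, and calls numbered 29 at 24 h, 14 in Tnfr+/+ lungs, 0 for the interaction (Pttg1 1.66, adjusted p = 0.75), 60 for 72 against 24 h and 2 for 72 against 48 h. In that fit 81.5% of the calls at 72 h were higher, against 65.6%. Array weights gave 955 higher and 742 lower, 660 at 24 h, 2448 at 48 h, 2 interactions, 373 for 72 against 24 h and 6 for 72 against 48 h. At an unadjusted p under 0.01 the counts were 903 higher and 686 lower, 999 at 24 h, 1703 at 48 h, 1614 in Tnfr+/+ lungs, 218 interactions, 864 for 72 against 24 h and 239 for 72 against 48 h. The study used a t-test at p under 0.01 for O3 in Tnfr+/+ lungs, which its legends call moderated. An ordinary t-test at that threshold, with each comparison on its own arrays, gave 715 higher and 566 lower, 899 at 24 h, 1824 at 48 h, 687 in Tnfr+/+ lungs, 708 for 72 against 24 h and 364 for 72 against 48 h. After Benjamini-Hochberg it gave 59 higher and 17 lower, 9 mitosis and 2 replication genes, 0 at 24 h, 303 at 48 h, 2 in Tnfr+/+ lungs, 5 for 72 against 24 h and 0 for 72 against 48 h. For 72 against 48 h, cyclic loess gave 2 calls, a stricter filter (array median in 3 arrays) 0 and a floor of 32 gave 5, and the stricter filter gave 2 interactions. Replicate numbers did not pair the lungs (r from -0.02 to 0.01 for equal numbers), and the replicate block gave 487 higher and 249 lower and 2 for 72 against 48 h, its only count moved by over 1.5 times. Leaving out 1 array gave 327 to 722 higher, 86 to 444 lower, 32 to 39 mitosis and 13 to 24 replication genes, 108 to 364 at 24 h, 354 to 1217 at 48 h, 294 to 769 in Tnfr+/+ lungs, 0 to 3 interactions (Pttg1 1.43 to 1.80), 104 to 305 for 72 against 24 h and 0 to 2 for 72 against 48 h. Single genes were followed in up to 16 of the alternatives, which did not include the t-test, the unadjusted threshold or a fold threshold. Of 93 named genes called, 92 kept their direction in every alternative followed and 41 kept their call. The exception in direction was Lss (-0.35 as the median of its probe sets, adjusted p = 0.40). The fit limited to the arrays of the comparison ended 48 of the 93 calls, the most of any alternative followed. The cause of these moves was not tested. Signals near the floor limit the fold changes of dim genes.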

Other observations

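Of the 36 process lists, 22 had more members higher than lower at 72 h and 4 more lower than higher. In cholesterol biosynthesis 5 of 19 genes were called higher and none lower (2 to 6 when single arrays were left out, with 2 without air replicate 3 or O3 replicate 1, and 3 without air replicate 2 or O3 replicate 2 or 3). The same list had 6 members higher at 24 h, 9 at 48 h and 2 in Tnfr+/+ lungs at 72 h. Over all genes 2.55% were called higher and 1.70% lower at 72 h against air. Some of these cholesterol calls rested on the probe set that was read. With the median of a gene's probe sets, Cyp51 (1.01) and Sc5d (0.79) lost their call in limma. Lss went from 1.25 to -0.35 (limma, adjusted p = 0.40), while Sqle kept its call. Ribosome biogenesis had 3 of 19 members higher, among them Nop58, a core protein of box C/D ribonucleoproteins (410, 322 and 378 in O3 lungs and 164, 154 and 183 in air lungs, limma log2 fold change 1.14, adjusted p = 0.012). None of 7 goblet cell markers was called by limma, with 3 higher at an unadjusted p under 0.05 and a median log2 fold change of 0.78.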
